A study of Homo sapiens with 15 samples.

Results

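The comparison set MH7A cells given IL-1β and glucosamine (GlcN) against resting MH7A cells, 3 arrays against 3, and asked what was left of the IL-1β response under GlcN and what else had changed. MH7A cells are an established line of human synovial cells. The 6 arrays are those that the submitters' labels name as IL-1β-stimulated with GlcN and as nontreated, out of 15 arrays in the series, and every condition was run once in each of 3 experiments. Treated cells had received 5 mM GlcN 2.5 h before 15 pg/ml IL-1β and were kept with both for 13 h, so that GlcN was present for 15.5 h, and resting cells had received neither. The other arrays carried IL-1β alone, IL-1β with GlcN and alloxan, or IL-1β with alloxan (5 mM for 30 min and then 2 mM), 3 arrays each. Alloxan was used to inhibit OGT, the enzyme that attaches O-GlcNAc to proteins. No array held GlcN without IL-1β, so that in this comparison the effects of GlcN and of both agents acting together cannot be told apart.

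IL-1β binds its receptor on synovial cells and, through MyD88, IRAK and TRAF6, releases NF-κB from IκBα. NF-κB then switches on cytokine and chemokine genes together with its own inhibitors, among them NFKBIA (IκBα) and TNFAIP3 (A20). GlcN enters cells through glucose transporters, is phosphorylated, and feeds the hexosamine pathway that makes UDP-GlcNAc, the donor for O-GlcNAc and for protein glycosylation in the endoplasmic reticulum (ER). Cells sense trouble with folding in the ER through ATF6, IRE1 (which splices XBP1) and PERK, and PERK shares with the amino acid sensor GCN2 the translation of ATF4. ATF4 with its partner CHOP (DDIT3) drives genes for amino acid synthesis, amino acid uptake and tRNA charging.

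The values are log2 RMA signals, 1 per transcript cluster, and array medians were 6.18 to 6.21 in experiment 1, 7.14 to 7.19 in experiment 2 and 7.49 to 7.54 in experiment 3. Levels were therefore compared within an experiment, and the experiment was a block in the fit. Values below are given in the order of experiments 1, 2 and 3, and a log2 fold change is followed by the SD of its 3 within-experiment differences. The deposited values were exactly equal for 12.9% to 25.6% of the transcript clusters between any 2 arrays of the same experiment, and for at most 0.00601% between arrays of different experiments. Whether the experiments were summarised apart is not given in the sources used here. The treated and the resting array were tied in this way for 3460, 1857 and 2437 of the 16872 genes tested in experiments 1, 2 and 3, and 42 of the genes that passed the test below had such a tie in 1 or more experiments. A tie enters the fit as a difference of 0, and its effect on the fitted spread was not tested. The 11 synovial fibroblast markers had a median percentile on the array of 74.7 with IL-1β and GlcN and 76.8 in resting cells. The 6 macrophage, 6 lymphocyte and 6 endothelial markers had median percentiles from 37.5 to 39.4 with IL-1β and GlcN and from 38.1 to 40.7 in resting cells, and none of the 18 passed the test. Of 6 epithelial markers, the keratins KRT18 (-0.36) and KRT8 (-0.26) were lower and 4 did not pass. Of the fibroblast markers, CD55 was higher and COL1A2, THY1, COL3A1 and FAP were lower. FAP, a fibroblast surface protease, stood at percentile 22.2 with IL-1β and GlcN and 31.2 in resting cells. All arrays hold bulk RNA of 1 cell line, in which a change in every cell and a change in part of the cells cannot be told apart.

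With IL-1β and GlcN, 834 of 16872 genes were higher than in resting cells (4.94%) and 1279 were lower (7.58%), by limma with Benjamini-Hochberg adjusted p under 0.05. The difference had the same sign in 3 of 3 experiments for 2061 of these 2113 genes. At least a 1.5-fold difference was found for 169 of the higher and 180 of the lower genes, and at least a 2-fold difference for 50 and 40. The median log2 fold change was 0.35 among the higher genes, -0.33 among the lower ones and 0.01 over all genes. For IL-1β alone against the same resting arrays, 0 genes (0%) passed in either direction by the same test, with 490 higher and 486 lower at an unadjusted p under 0.05. The counts depended on the fit. With the block dropped, 4 genes (BEST1, INHBE, SLC6A9 and SPX) were higher and 0 lower, and with the block but with only these 6 arrays, 1 (SLC6A9) was higher and 0 lower. Without experiment 2, 264 genes were higher and 287 lower.

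The 4 genes with the largest log2 fold changes above resting cells were BEST1, SPX, INHBE and SLC6A9. SLC6A9, the glycine transporter GLYT1 (transcript cluster 7915543), read 9.44, 10.62 and 10.90 with IL-1β and GlcN, against 6.73, 8.01 and 8.29 in resting cells. Each treated array was thus above the resting array of its experiment by nearly the same amount, a log2 fold change of 2.64 ± 0.06 (adjusted p = 6.01e-08), or 6.25-fold. INHBE, the βE subunit of the inhibin and activin family, read 8.49, 10.02 and 10.20 with IL-1β and GlcN, against 5.31, 7.38 and 6.84 in resting cells, and its log2 fold change was 3.06 ± 0.37 (adjusted p = 2.77e-06). SPX, which encodes the peptide hormone spexin, read 9.04, 9.13 and 9.41 with IL-1β and GlcN, against 5.28, 6.61 and 6.49 in resting cells. Its within-experiment differences, 3.75, 2.52 and 2.93, had the largest SD of these 4 genes, and its log2 fold change was 3.07 ± 0.63 (adjusted p = 5.22e-06). BEST1, a calcium-activated chloride channel, read 8.35, 9.76 and 10.24 with IL-1β and GlcN, against 5.34, 6.80 and 6.76 in resting cells, and differed by 3.15 ± 0.29 (adjusted p = 1.36e-07), or 8.87-fold. With IL-1β and GlcN, SPX and BEST1 lay at percentiles 77.9 and 81 of the array, and in resting cells at 36.7 and 39.6.

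The next in order was IL20RB, a receptor chain that IL-20 and IL-24 use, which read 8.23, 8.72 and 8.63 with IL-1β and GlcN, against 5.81, 6.49 and 6.75 in resting cells. The groups did not overlap, and the log2 fold change was 2.18 ± 0.27 (adjusted p = 4.84e-06). IL24 itself went the other way, with 6.01, 7.38 and 7.76 with IL-1β and GlcN, against 6.69, 8.54 and 8.81 in resting cells and a log2 fold change of -0.96 ± 0.26 (adjusted p = 0.000571). The remaining genes among the 12 highest were DDIT3 (2.17), WARS1 (1.99), ALDH1L2 (1.83), SLC7A11 (1.77), TNFRSF9 (1.72), CEBPB (1.69) and ASNS (1.65), all log2 fold changes that passed the test and that are taken up below.

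The 12 genes farthest below resting cells were of mixed roles. CD180, a Toll-like receptor relative best known from B cells, read 4.25, 5.89 and 5.54 with IL-1β and GlcN, against 6.74, 8.70 and 7.70 in resting cells. It lay at percentile 23.5 of the array with IL-1β and GlcN and 59.8 in resting cells, and its log2 fold change was -2.49 ± 0.33 (adjusted p = 7.14e-05). KPRP, a keratinocyte proline-rich protein, differed by -2.28 ± 0.52 (adjusted p = 0.000158), and RGS4, which shortens G protein signals, by -1.79 ± 0.83 (adjusted p = 0.000964). STC1, a secreted glycoprotein that responds to low oxygen, read 6.82, 7.32 and 7.98 with IL-1β and GlcN, against 8.20, 9.33 and 9.44 in resting cells, a log2 fold change of -1.62 ± 0.34 (adjusted p = 1.83e-05). SGK1, a kinase of salt and stress responses, differed by -1.38 ± 0.20 (adjusted p = 5.2e-06). DIO2, which activates thyroid hormone, differed by -1.6 ± 0.55 (adjusted p = 0.000488), and GRPR, the gastrin-releasing peptide receptor, by -1.6 ± 0.45 (adjusted p = 4.31e-05). The list was completed by DCDC2 (-1.63), ESM1 (-1.46), MYPN (-1.45), RNU4-2 (-1.36) and MYEOV (-1.36). ESM1 was the least even of them, with differences of -0.20, -1.90 and -2.26 in the 3 experiments, and its call was lost without the treated or the resting array of experiment 2 or of experiment 3.

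**Figure D1:**
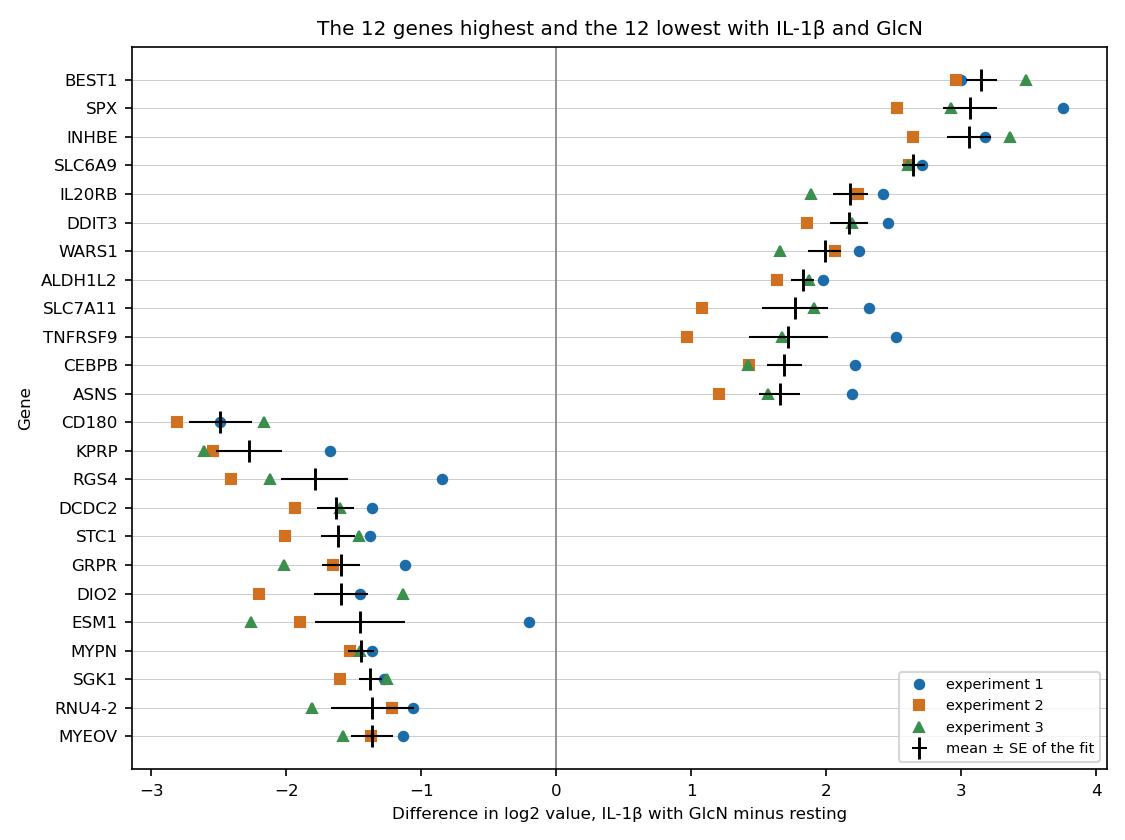
Within-experiment difference in log2 value between cells with IL-1β and GlcN and resting cells (x axis) for the 12 genes highest and the 12 lowest (y axis). Points are the 3 experiments, and the black bar is the mean with the SE of the fit. All 3 points of each gene lie on the same side of 0, and ESM1 has 1 point near 0 at -0.20.

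15 genes differed at least 1.5-fold with IL-1β alone against resting cells at an unadjusted p under 0.05, 13 higher and 2 lower, and these show what remained of that response. Those values chose the genes, and the same resting arrays enter both comparisons, so that the genes are described here and their levels are set side by side. The median log2 fold change of the 13 was 0.75 with IL-1β alone and 0.23 with IL-1β and GlcN, and 8 of the 13 lay above resting cells with GlcN while 5 lay below. Only 1 of the 13, TNFRSF9, passed the test as higher with IL-1β and GlcN, and MIR21 and MIR221 passed as lower.

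TNFRSF9 (4-1BB), a T cell costimulator among the TNF receptors (transcript cluster 7912145), read 9.39, 9.79 and 9.85 with IL-1β and GlcN and 9.91, 9.95 and 9.78 with IL-1β alone, against 6.87, 8.82 and 8.18 in resting cells. Both stimulated conditions were above resting cells in every experiment. The log2 fold change was 1.72 ± 0.78 (adjusted p = 0.00334) with IL-1β and GlcN, or 3.29-fold, and 1.92 with IL-1β alone. The call was lost when experiment 3 was left out. C3, the central complement protein, read 6.08, 6.99 and 7.30 with IL-1β and GlcN and 7.54, 7.47 and 8.01 with IL-1β alone, against 4.99, 6.54 and 7.0 in resting cells. It remained above resting cells in 3 of 3 experiments, at 0.61 ± 0.42 (adjusted p = 0.114) with IL-1β and GlcN and 1.5 with IL-1β alone, and did not pass the test.

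IL6, the cytokine that relays much of the IL-1 response in the joint (transcript cluster 8131803), read 6.81, 7.28 and 7.96 with IL-1β and GlcN and 8.03, 8.63 and 8.59 with IL-1β alone, against 6.26, 7.59 and 7.68 in resting cells. With GlcN it was above resting cells in experiments 1 and 3 and below in experiment 2. Its log2 fold change was 0.17 ± 0.44 (adjusted p = 0.631) with IL-1β and GlcN, and 1.24 with IL-1β alone. CXCL8, the neutrophil chemokine IL-8, read 6.15, 7.05 and 7.22 with IL-1β and GlcN and 6.85, 7.27 and 7.43 with IL-1β alone, against 5.65, 6.88 and 7.20 in resting cells, with log2 fold changes of 0.23 ± 0.25 (adjusted p = 0.551) with IL-1β and GlcN and 0.60 with IL-1β alone. TNF gave -0.21 ± 0.21 (adjusted p = 0.199) and 0.10. None of these 3 cytokines differed from resting cells beyond the error of the fit, which does not show that their levels were equal.

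Neither NFKBIA nor TNFAIP3, inhibitors that close the NF-κB loop, passed the test with IL-1β and GlcN. NFKBIA read 9.02, 10.37 and 10.15 with IL-1β and GlcN and 9.79, 10.72 and 10.50 with IL-1β alone, against 8.43, 10.30 and 9.73 in resting cells, above resting cells in 3 of 3 experiments with log2 fold changes of 0.36 ± 0.26 (adjusted p = 0.174) with IL-1β and GlcN and 0.85 with IL-1β alone. TNFAIP3 read 6.59, 7.69 and 8.0 with IL-1β and GlcN and 7.46, 9.02 and 9.08 with IL-1β alone, against 6.47, 8.60 and 8.56 in resting cells. With GlcN it was below resting cells in experiments 2 and 3, and its log2 fold changes were -0.45 ± 0.53 (adjusted p = 0.105) with IL-1β and GlcN and 0.64 with IL-1β alone. NFKB2, the p100 subunit, gave 0.26 ± 0.45 (adjusted p = 0.351) and 0.59. CLDN1, a tight junction protein, gave 0.50 ± 0.38 (adjusted p = 0.0649) and 0.68, and NFE2L3, a cap'n'collar transcription factor, gave 0.40 ± 0.32 (adjusted p = 0.0916) and 0.74. Over the 11 genes of NF-κB subunits and feedback, 0 passed in either direction with IL-1β and GlcN. Of all genes, 4.94% were higher and 7.58% lower, so that 0 of so short a list is near that share. The median log2 fold change of the list was 0.06 with IL-1β and GlcN and 0.32 with IL-1β alone.

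**Figure D2:**
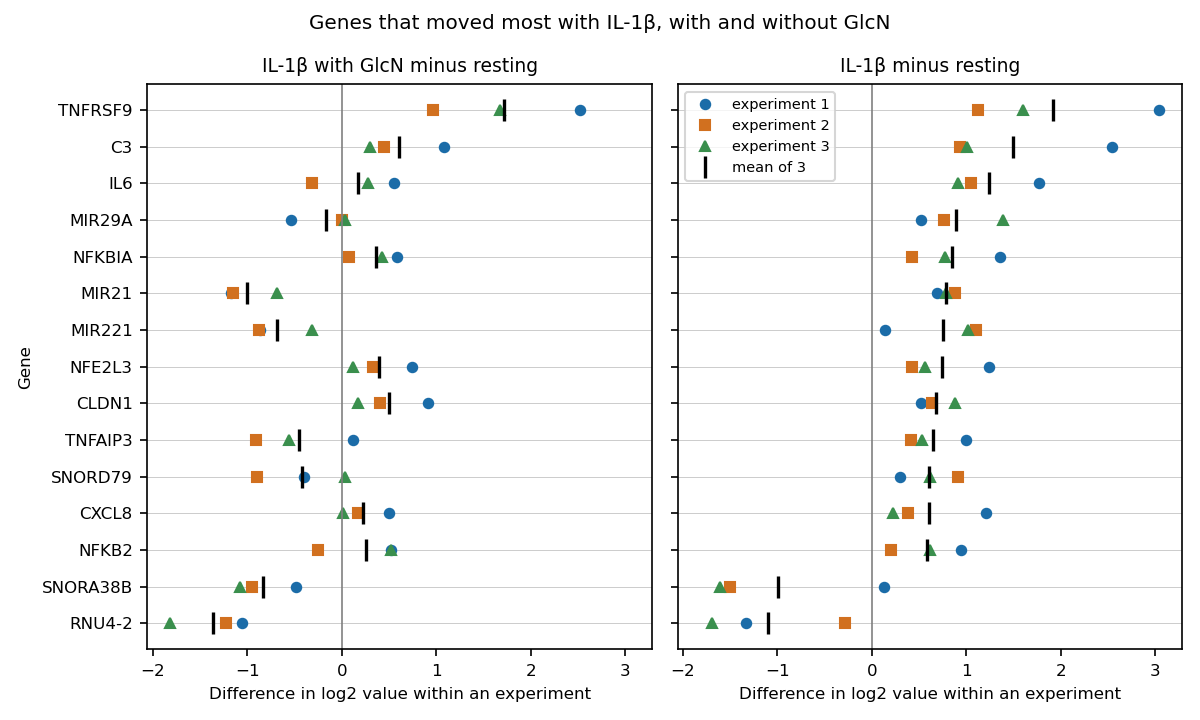
Within-experiment differences in log2 value from resting cells (x axis) for the 15 genes chosen by their change with IL-1β alone (y axis), with IL-1β and GlcN on the left and IL-1β alone on the right. Points are the 3 experiments and black bars their means. TNFRSF9 keeps a mean of 1.72 on the left, whereas MIR21 lies at 0.79 on the right and -1.0 on the left.

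Of 21 secreted products of IL-1 and NF-κB, 16 did not pass with IL-1β and GlcN, and the median log2 fold change was 0.06. Of the others, 2 were lower (9.52%) and 3 higher (14.3%), against 7.58% and 4.94% of all genes. The 3 were IL1A, the α form of interleukin-1 (0.53 ± 0.36, adjusted p = 0.0121), the chemokine CXCL2 (0.42 ± 0.19, adjusted p = 0.0127) and the cytokine IL32 (0.35 ± 0.15, adjusted p = 0.0415). IL1A was dim, at percentile 28.7 of the array with IL-1β and GlcN and 21.6 in resting cells. The call of CXCL2 was lost without either array of experiment 2, and that of IL32 in 5 of the 6 fits that left out 1 array and under both other scalings. IL11, a cytokine of the IL-6 family, read 6.09, 7.33 and 7.81 with IL-1β and GlcN, against 6.75, 8.64 and 8.47 in resting cells and gave -0.88 ± 0.37 (adjusted p = 0.00163), beside IL24 above. With IL-1β alone, the log2 fold changes were 0.29 for IL1A, 0.46 for CXCL2, 0.54 for IL32, 0.01 for IL11 and -0.06 for IL24. Of 19 surface and enzyme products, 1 was higher (5.26%), TNFRSF9, and 3 were lower (15.8%). These were the interleukin-7 receptor IL7R (-1.34 ± 0.25, adjusted p = 5.2e-06), IER3 (-0.92 ± 0.15, adjusted p = 0.000781) and the urokinase receptor PLAUR (-0.46 ± 0.20, adjusted p = 0.0143). With IL-1β alone, IL7R, IER3 and PLAUR gave 0.21, 0.30 and 0.11. The adhesion molecule ICAM1 differed by -0.13 ± 0.32 (adjusted p = 0.591) with IL-1β and GlcN. In the IL-1 signalling chain of 18 genes, 2 were higher and 2 lower (11.1% each, against 4.94% and 7.58% of all genes). TRAF6, the ubiquitin ligase of the receptor complex, gave 0.51 ± 0.25 (adjusted p = 0.0108), the decoy receptor IL1R2 0.30 ± 0.16 (adjusted p = 0.0464), the kinase MAP2K3 -0.44 ± 0.20 (adjusted p = 0.00388) and the kinase MAPK8 -0.19 ± 0.13 (adjusted p = 0.0265). Of the 6 fits that left out 1 array, the call of IL1R2 was lost in 5, that of MAPK8 in 4 (each array of experiments 2 and 3 left out in turn), and those of TRAF6 and PLAUR in 2 (without either array of experiment 2). When any 1 experiment was left out, 0 genes of this chain were called higher, and 0 were called lower without experiment 2 or 3. IL1A lost its call without experiment 1 or 3, IL24 without experiment 3 and IER3 without experiment 2.

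The promoters of 3 of these genes are shown, TNFRSF9, which passed as higher with IL-1β and GlcN, and NFKBIA and IL6, which did not pass. The genes were not tested against each other. Each sequence is the RefSeq window from 250 bases before to 50 after the gene's start (build GRCh38.p14), 5′ to 3′ along the gene, with matches to the κB motif GGANTTTCC on either strand in capitals.
TNFRSF9, chr1:7940790-7941089, minus strand: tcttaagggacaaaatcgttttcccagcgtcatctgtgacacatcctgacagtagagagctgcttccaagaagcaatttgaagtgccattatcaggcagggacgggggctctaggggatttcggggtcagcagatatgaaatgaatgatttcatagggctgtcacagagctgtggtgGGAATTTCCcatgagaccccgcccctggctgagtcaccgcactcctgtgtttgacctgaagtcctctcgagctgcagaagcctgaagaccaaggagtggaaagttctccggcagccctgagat
NFKBIA, chr14:35404700-35404999, minus strand: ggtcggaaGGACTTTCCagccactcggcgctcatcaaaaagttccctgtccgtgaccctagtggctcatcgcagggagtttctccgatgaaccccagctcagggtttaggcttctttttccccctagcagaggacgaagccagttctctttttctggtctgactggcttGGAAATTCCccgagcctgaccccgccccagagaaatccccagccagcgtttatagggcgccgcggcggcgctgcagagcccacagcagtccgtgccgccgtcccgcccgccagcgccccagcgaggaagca
IL6, chr7:22726950-22727249, plus strand: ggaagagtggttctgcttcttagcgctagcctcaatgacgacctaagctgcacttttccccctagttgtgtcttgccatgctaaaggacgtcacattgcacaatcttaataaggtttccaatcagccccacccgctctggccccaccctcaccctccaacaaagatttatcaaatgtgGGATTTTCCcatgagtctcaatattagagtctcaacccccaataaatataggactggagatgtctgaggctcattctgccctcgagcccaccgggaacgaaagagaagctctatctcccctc
The motif lies at position -73 from the start in TNFRSF9, at -242 and -81 in NFKBIA and at -72 in IL6. It was present in 5 of 9 promoters found for the NF-κB feedback list, in 8 of 16 for the secreted products and in 3 of 16 for the surface and enzyme products, against 1.64% of all 27305 promoters. A match describes these letters and is no measure of binding, and genes with the motif stood on both sides of resting cells with IL-1β and GlcN.

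Among 105 symbols starting with MIR, of which 16 are host genes, 0 were higher and 4 (3.81%, against 7.58% of all genes) were lower with IL-1β and GlcN, and the median log2 fold change was 0.015. The 4 were MIR21, MIRLET7A2, MIR221 and the host gene MIR31HG, and without the treated array of experiment 1 there were 10 higher. MIR21, a microRNA induced in many inflamed tissues (transcript cluster 8008885), read 6.73, 7.24 and 7.44 with IL-1β and GlcN and 8.58, 9.28 and 8.91 with IL-1β alone, against 7.89, 8.39 and 8.13 in resting cells. With IL-1β and GlcN it was the lowest of the 3 conditions in every experiment, and with IL-1β alone the highest. Its log2 fold change was -1.0 ± 0.28 (adjusted p = 0.00129) with IL-1β and GlcN, or 0.499 of the resting level, and 0.79 with IL-1β alone. The call was lost when experiment 1 or experiment 2 was left out. VMP1, the protein-coding gene whose RefSeq span holds MIR21, differed by -0.02 ± 0.11 (adjusted p = 0.892). MIR221 read 4.84, 5.63 and 6.29 with IL-1β and GlcN and 5.84, 7.61 and 7.63 with IL-1β alone, against 5.70, 6.51 and 6.61 in resting cells, with log2 fold changes of -0.69 ± 0.32 (adjusted p = 0.0267) and 0.75. Its call was lost without the treated array of experiment 2 or the resting array of experiment 1 or 2. MIRLET7A2 gave -0.80 ± 0.14 (adjusted p = 0.00608) and 0.43. The MIRLET7A2 call was lost without experiment 1 and that of MIR31HG without experiment 2 or 3. MIR29A, which is also among the 15 genes, gave -0.17 ± 0.32 (adjusted p = 0.596) and 0.89.

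The mature microRNAs of these genes are shown to give the seeds (bases 2 to 8, in capitals) that their targets would pair with, as RefSeq lists them.
hsa-miR-21-5p: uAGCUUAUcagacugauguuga
hsa-miR-221-3p: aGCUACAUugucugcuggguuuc
hsa-let-7a-5p: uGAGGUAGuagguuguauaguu
hsa-miR-29a-3p: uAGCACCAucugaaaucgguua
The 4 seeds differ from each other. Which form of the RNA (primary transcript, hairpin or mature) each cluster detected is not given in the sources used here, and MIR29A stood at percentile 11.7 of the array with IL-1β and GlcN and 13.1 in resting cells. For MIR21 the percentiles were 52.2 and 65.4, and for MIR31HG 47.1 and 57.7. MIR221 and MIRLET7A2 were dimmer, at 28.4 and 39.2 and at 21.1 and 32.2.

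Genes of the ATF4 and CHOP programme were among those that were high with IL-1β and GlcN and close to resting cells with IL-1β alone. The list of 20 transcription factors, feedback genes and other genes of that programme was compiled with earlier results of these data known. It counts SPX and INHBE, described above. Of the 20, 16 were higher with IL-1β and GlcN (80%, against 4.94% of all genes), 0 were lower and all 20 had a positive log2 fold change. The median was 0.82 with IL-1β and GlcN, against 0.01 over all genes, and it was -0.04 with IL-1β alone. DDIT3, the pro-apoptotic factor CHOP, read 10.34, 10.84 and 10.97 with IL-1β and GlcN and 7.62, 9.03 and 8.84 with IL-1β alone, against 7.88, 8.98 and 8.78 in resting cells. Every treated array lay above every array of both other conditions, and the log2 fold change was 2.17 ± 0.30 (adjusted p = 5.2e-06), or 4.5-fold. ATF4 itself gave 0.77 ± 0.17 (adjusted p = 0.000458), and its partner CEBPB gave 1.69 ± 0.46 (adjusted p = 1.78e-05). Further transcription factors that rose were NUPR1 (1.52 ± 0.30, adjusted p = 1.08e-05) and CEBPG (1.03 ± 0.30, adjusted p = 0.000103).

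Feedback genes of the programme rose as well. TRIB3, a pseudokinase that restrains ATF4 and AKT, gave 1.49 ± 0.29 (adjusted p = 5.22e-06), and CHAC1, which degrades glutathione, gave 1.61 ± 0.33 (adjusted p = 3.82e-05). SESN2, a leucine sensor that restrains mTORC1, gave 1.14 ± 0.05 (adjusted p = 2.77e-06), with differences of 1.19, 1.10 and 1.12 in the 3 experiments. GDF15, a stress-induced hormone of appetite, gave 0.84 ± 0.26 (adjusted p = 0.000407), and DDIT4, another mTORC1 inhibitor, gave 0.80 ± 0.11 (adjusted p = 0.000907). PPP1R15A (GADD34), the phosphatase subunit that restores translation, gave 0.58 ± 0.27 (adjusted p = 0.0069). ATF3 passed with 0.29 ± 0.09 (adjusted p = 0.0382) only while all 6 arrays were kept. NFIL3, VLDLR, ATF5 and FGF21 did not pass, with log2 fold changes of 0.40, 0.30, 0.24 and 0.16.

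Enzymes that make serine, asparagine and one-carbon units rose in 11 of 17 cases (64.7%) and 1 fell (5.88%), against 4.94% and 7.58% of all genes. The median log2 fold change was 0.60, against -0.08 with IL-1β alone. ASNS, asparagine synthetase, read 9.85, 10.21 and 10.60 with IL-1β and GlcN and 7.79, 8.75 and 8.54 with IL-1β alone, against 7.66, 9.01 and 9.04 in resting cells and differed by 1.65 ± 0.50 (adjusted p = 6.58e-05), or 3.15-fold. ALDH1L2, the mitochondrial formyltetrahydrofolate dehydrogenase, read 9.89, 10.66 and 11.03 with IL-1β and GlcN, against 7.92, 9.03 and 9.15 in resting cells, a log2 fold change of 1.83 ± 0.18 (adjusted p = 7.83e-07). The first and second enzymes of serine synthesis, PHGDH and PSAT1, gave 1.15 ± 0.07 (adjusted p = 1.08e-05) and 1.15 ± 0.43 (adjusted p = 0.000167). The mitochondrial one-carbon enzymes SHMT2 and MTHFD2 gave 0.60 ± 0.23 (adjusted p = 0.000435) and 0.95 ± 0.37 (adjusted p = 0.000164), whereas their cytosolic counterparts SHMT1 and MTHFD1 did not pass, at -0.19 and -0.20. PCK2, the mitochondrial PEP carboxykinase, gave 1.35 ± 0.18 (adjusted p = 4.84e-06). ALDH18A1, of proline synthesis, was the 1 that fell, at -0.31 ± 0.14 (adjusted p = 0.0143), a call lost without either array of experiment 2 or the treated array of experiment 3.

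Amino acid transporters rose in 11 of 18 cases (61.1%, against 4.94% of all genes) and fell in 0, with a median of 0.27. Beside SLC6A9, the cystine importer SLC7A11 gave 1.77 ± 0.63 (adjusted p = 0.000986) and its heavy chain SLC3A2 1.32 ± 0.30 (adjusted p = 0.000102). SLC7A5, the leucine transporter that shares that chain, gave 1.06 ± 0.23 (adjusted p = 8.54e-05), and the neutral amino acid carrier SLC1A4 1.09 ± 0.05 (adjusted p = 1.02e-05). The glutamine carrier SLC38A2 did not pass, at -0.01. Of 19 cytosolic aminoacyl-tRNA synthetases, which load amino acids on tRNA, 12 rose (63.2%) and 4 fell (21.1%), against 4.94% and 7.58% of all genes. WARS1, which loads tryptophan, read 11.33, 11.75 and 12.20 with IL-1β and GlcN, against 9.09, 9.69 and 10.54 in resting cells and gave 1.99 ± 0.30 (adjusted p = 4.84e-06). AARS1 (alanine) gave 1.22 ± 0.24 (adjusted p = 8.19e-06), MARS1 (methionine) 0.83 ± 0.27 (adjusted p = 0.000102), YARS1 (tyrosine) 0.80 ± 0.16 (adjusted p = 9.12e-05) and SARS1 (serine) 0.76 ± 0.15 (adjusted p = 2.09e-05). The 4 that fell were RARS1 (-0.45 ± 0.24, adjusted p = 0.00246), KARS1 (-0.22 ± 0.17, adjusted p = 0.0471), FARSA (-0.16 ± 0.08, adjusted p = 0.041) and QARS1 (-0.15 ± 0.08, adjusted p = 0.0341), for arginine, lysine, phenylalanine and glutamine. The last 3 calls were lost under quantile normalization, 0 of the synthetases were called lower without experiment 2 or without experiment 3, and 4 of the transporters were called higher without experiment 3.

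The promoters of ASNS, AARS1 and CHAC1 are given because all 3 genes rose and all hold the composite site TGATGNAA, which C/EBP and ATF factors share (searched on both strands, in capitals, same RefSeq windows).
ASNS, chr7:97872359-97872658, minus strand: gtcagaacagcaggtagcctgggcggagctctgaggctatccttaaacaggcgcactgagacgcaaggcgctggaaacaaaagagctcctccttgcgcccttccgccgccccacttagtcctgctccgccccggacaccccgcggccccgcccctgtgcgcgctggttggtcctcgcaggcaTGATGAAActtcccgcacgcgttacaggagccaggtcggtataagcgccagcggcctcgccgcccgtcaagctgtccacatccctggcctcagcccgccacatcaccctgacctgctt
AARS1, chr16:70289457-70289756, minus strand: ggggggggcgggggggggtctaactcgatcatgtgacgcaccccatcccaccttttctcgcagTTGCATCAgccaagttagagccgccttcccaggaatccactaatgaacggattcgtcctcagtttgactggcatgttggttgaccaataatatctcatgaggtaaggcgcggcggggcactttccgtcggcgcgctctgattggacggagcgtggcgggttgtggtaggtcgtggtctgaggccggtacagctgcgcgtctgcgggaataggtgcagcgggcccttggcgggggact
CHAC1, chr15:40953221-40953520, plus strand: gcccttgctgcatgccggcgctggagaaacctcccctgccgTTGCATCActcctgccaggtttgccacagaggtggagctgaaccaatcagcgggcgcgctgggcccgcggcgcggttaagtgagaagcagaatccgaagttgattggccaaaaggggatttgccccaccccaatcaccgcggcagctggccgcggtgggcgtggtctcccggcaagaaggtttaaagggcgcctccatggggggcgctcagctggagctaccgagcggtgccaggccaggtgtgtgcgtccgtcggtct
The match is at -68 from the start in ASNS, -187 in AARS1 and -209 in CHAC1, and in the last 2 it runs on the opposite strand. Of the aminoacyl-tRNA synthetase promoters, 6 of 16 held it, of the transporter promoters 4 of 16, of the serine and one-carbon promoters 3 of 13 and of the ATF4 and CHOP list 3 of 18, against 3.67% of all promoters. The windows of SLC6A9 and DDIT3 did not hold these letters. IL7R, HSPA4L and HK1, all called lower, held the site, and so did FGF21, which did not pass. Genes with this site thus stood on both sides of resting cells with IL-1β and GlcN, and a match is no measure of binding.

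Genes of the ER had the most higher calls of any list, with 24 of 29 higher (82.8%, against 4.94% of all genes) and 0 lower. The median log2 fold change was 0.62, with experiment medians of 0.72, 0.59 and 0.49, and 0.03 with IL-1β alone. HSPA5 (BiP), the main ER chaperone, read 13.18, 13.68 and 13.83 with IL-1β and GlcN and 12.05, 12.92 and 13.09 with IL-1β alone, against 11.95, 12.94 and 12.95 in resting cells. It stood at percentile 98.7 of the resting arrays and gave 0.95 ± 0.25 (adjusted p = 6.62e-05), or 1.93-fold. ERO1B, an ER oxidase, read 7.74, 8.65 and 8.63 with IL-1β and GlcN, against 6.15, 6.92 and 7.15 in resting cells and gave 1.6 ± 0.12 (adjusted p = 5.14e-06), whereas its paralog ERO1A did not pass, at -0.13. HERPUD1, of ER-associated degradation, gave 1.56 ± 0.29 (adjusted p = 1.31e-05) and SEL1L, of the same machinery, 0.92 ± 0.09 (adjusted p = 5.14e-06). The cochaperones DNAJC3 and DNAJB9 gave 1.21 ± 0.22 (adjusted p = 5.2e-06) and 0.98 ± 0.41 (adjusted p = 0.00301), HYOU1 gave 1.11 ± 0.19 (adjusted p = 4.84e-06) and the disulfide isomerase PDIA4 1.14 ± 0.08 (adjusted p = 3.54e-07). Of the sensors and their effectors, XBP1 gave 0.81 ± 0.17 (adjusted p = 8.75e-05) and passed with ATF6 (0.50) and ERN1, the IRE1 gene (0.31), while EIF2AK3 (PERK) did not pass, at 0.11. Heat shock genes outside the ER did not follow. Of 13, 0 were higher and 9 lower (69.2%, against 7.58% of all genes), with a median of -0.30. Among the 9 were HSPH1 (-0.56 ± 0.36, adjusted p = 0.00498), the mitochondrial HSPE1 (-0.60 ± 0.20, adjusted p = 0.00563) and HSPA4L (-0.44 ± 0.09, adjusted p = 0.000149). Without experiment 2, 18 of the ER genes were still called higher, but only 1 heat shock gene lower.

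The ER stress element (CCAAT, any 9 bases and CCACG, searched on both strands) is rare, in 0.0806% of all promoters, and stood in 7 of 27 promoters of the ER list (CALR, CANX, CRELD2, ERO1B, HSP90B1, HSPA5 and XBP1). All 7 of these genes were higher, but so were 24 of all 29 genes of the list, and a link of the element to the rise was not tested. HSPA5, the main chaperone, and ERO1B, which had the largest difference of the list, are shown with the element in capitals.
HSPA5, chr9:125241294-125241593, minus strand: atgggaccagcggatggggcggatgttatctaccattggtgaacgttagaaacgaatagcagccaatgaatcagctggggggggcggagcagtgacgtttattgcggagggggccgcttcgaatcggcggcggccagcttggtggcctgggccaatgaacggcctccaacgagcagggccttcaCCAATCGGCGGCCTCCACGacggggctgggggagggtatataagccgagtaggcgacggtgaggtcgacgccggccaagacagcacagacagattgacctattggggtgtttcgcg
ERO1B, chr1:236281909-236282208, minus strand: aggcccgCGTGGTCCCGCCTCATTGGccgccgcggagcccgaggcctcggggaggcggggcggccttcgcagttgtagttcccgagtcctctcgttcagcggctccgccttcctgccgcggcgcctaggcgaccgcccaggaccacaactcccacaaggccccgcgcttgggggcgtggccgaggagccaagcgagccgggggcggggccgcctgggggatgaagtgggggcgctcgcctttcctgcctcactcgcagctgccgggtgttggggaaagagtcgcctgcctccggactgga
It begins at -66 from the start in HSPA5 and, on the opposite strand, at -243 in ERO1B.

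**Figure D3:**
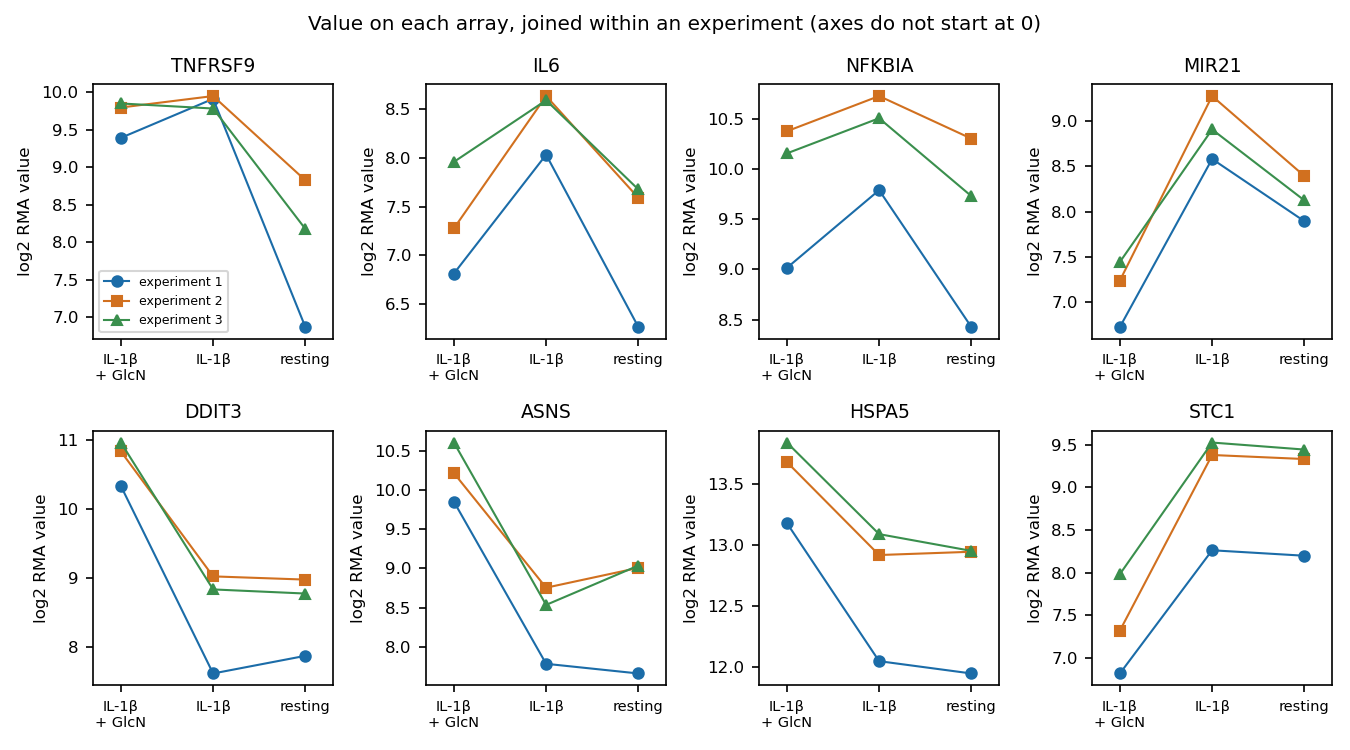
log2 RMA value (y axis) of 8 genes on the 3 arrays of each condition (x axis), joined within an experiment. TNFRSF9 keeps its level with GlcN, IL6 and NFKBIA lie nearer to resting cells, MIR21 lies below resting cells, DDIT3, ASNS and HSPA5 are high in the GlcN condition alone of these 3 and STC1 is low in it.

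Genes of low oxygen and glycolysis were lower. Of 24, 17 fell (70.8%) and 1 rose (4.17%), against 7.58% and 4.94% of all genes. The median log2 fold change was -0.40 with IL-1β and GlcN and -0.04 with IL-1β alone. Beside STC1, the aldolase ALDOC gave -0.91 ± 0.28 (adjusted p = 0.000214), PDK1, which keeps pyruvate from mitochondria, gave -0.90 ± 0.32 (adjusted p = 0.000623), and the repressor BHLHE40 -0.88 ± 0.19 (adjusted p = 0.00026). Lactate dehydrogenase LDHA gave -0.43 ± 0.13 (adjusted p = 0.00195). The 1 that rose was VEGFA, the vascular growth factor, which read 9.44, 10.49 and 10.78 with IL-1β and GlcN, against 8.47, 9.64 and 10.01 in resting cells and gave 0.86 ± 0.10 (adjusted p = 1.02e-05). GAPDH and ALDOA did not pass, at -0.02 and -0.06. Without experiment 2, 7 of these genes were called lower, and 10 without its resting array alone.

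Genes of GlcN uptake and use had calls in both directions. Of 12 genes of glucose transport and its MondoA sensor, 3 fell (25%, against 7.58% of all genes) and 0 rose. SLC2A1 (GLUT1), the main glucose transporter of cultured cells, read 11.09, 12.03 and 12.44 with IL-1β and GlcN, against 11.80, 12.81 and 12.83 in resting cells and gave -0.62 ± 0.21 (adjusted p = 0.00125), and the arrestins ARRDC4 and TXNIP, which follow sugar phosphate levels, gave -0.76 ± 0.46 (adjusted p = 0.00272) and -0.30 ± 0.10 (adjusted p = 0.0219). TXNIP gave -0.32 with IL-1β alone as well. In the hexosamine pathway of 13 genes, 2 rose (15.4%) and 5 fell (38.5%), against 4.94% and 7.58% of all genes. GFPT1, its rate-limiting enzyme, read 11.12, 11.83 and 12.09 with IL-1β and GlcN, against 10.56, 11.58 and 11.80 in resting cells and gave 0.36 ± 0.17 (adjusted p = 0.00999). OGT gave 0.35 ± 0.03 (adjusted p = 0.0175), while OGA, which removes O-GlcNAc, did not pass at 0.25 ± 0.17 (adjusted p = 0.0905), though it passed as higher under quantile normalization. The hexokinases HK2 and HK1, which can phosphorylate GlcN, gave -0.63 ± 0.24 (adjusted p = 0.000798) and -0.32 ± 0.06 (adjusted p = 0.00833). GNPDA2, GNPNAT1 and NAGK, which interconvert or acetylate hexosamine phosphates or salvage GlcNAc, gave -0.47, -0.31 and -0.21, all called lower. Of the 6 fits without 1 array, the calls of GNPDA2 and GNPNAT1 were lost in 4 (each array of experiments 2 and 3 left out in turn), that of NAGK in 5 and that of TXNIP in 3. The call of OGT was lost without the treated array of experiment 1 or 3 or the resting array of experiment 2, and that of GFPT1 when any 1 experiment was left out. Without experiment 2, 1 gene of this pathway was called lower.

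Immediate early genes and the feedback genes of the ERK pathway fell in 16 of 32 cases (50%, against 7.58% of all genes). They rose in 2 (6.25%, against 4.94%), and their median was -0.27 with IL-1β and GlcN and 0.03 with IL-1β alone. The phosphatases that switch off MAP kinases were among them. DUSP6, specific for ERK, read 6.80, 7.89 and 8.17 with IL-1β and GlcN, against 7.41, 8.74 and 9.34 in resting cells and gave -0.87 ± 0.28 (adjusted p = 0.00026), DUSP10 gave -0.72 ± 0.16 (adjusted p = 0.000116), DUSP5 -0.75 ± 0.16 (adjusted p = 6.57e-05) and DUSP1 -0.70 ± 0.10 (adjusted p = 0.000108). The transcription factors KLF10 and EGR1 gave -0.89 ± 0.04 (adjusted p = 5.2e-06) and -0.65 ± 0.32 (adjusted p = 0.00219), and FOSL1 of AP-1 -0.47 ± 0.01 (adjusted p = 0.000997). FOS and JUN did not pass, at -0.09 and -0.18. The 2 that rose were ATF3, counted above, and KLF2 (0.21).

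Matrix genes and mechanical targets were lower in part. Of 23 collagens and matrix proteins, 10 fell (43.5%) and 2 rose (8.7%), against 7.58% and 4.94% of all genes. The matricellular protein POSTN gave -0.80 ± 0.53 (adjusted p = 0.0143), COL8A1 -0.70 ± 0.20 (adjusted p = 0.00153) and SPARC -0.40 ± 0.10 (adjusted p = 0.000651), and COL1A2, a chain of type I collagen, gave -0.43 ± 0.31 (adjusted p = 0.0474), a call that 5 of the 6 fits without 1 array did not keep. TNC (tenascin C) rose, at 0.57 ± 0.27 (adjusted p = 0.00169), together with FN1 (0.20). Of 17 matrix proteases and inhibitors, 6 fell (35.3%) and 2 rose (11.8%). ADAMTS1 gave -0.91 ± 0.22 (adjusted p = 0.00025), MMP2 (gelatinase A) -0.87 ± 0.10 (adjusted p = 0.000248), ADAM12 -0.86 ± 0.41 (adjusted p = 0.00225) and ADAMTS6 -0.53 ± 0.32 (adjusted p = 0.00824), while the aggrecanase ADAMTS5 rose, at 0.27, with the inhibitor TIMP3, at 0.24. MMP1 and MMP3, the collagenase and stromelysin of inflamed synovium, did not pass. MMP1 differed by 0.80, -0.06 and -1.09 in the 3 experiments, and MMP3 had a log2 fold change of -0.10. Of 21 YAP and TAZ targets, 10 fell (47.6%) and 2 rose (9.52%). Among those that fell were tissue factor F3 at -1.31 ± 0.22 (adjusted p = 1.31e-05), ANKRD1 at -0.96 ± 0.41 (adjusted p = 0.000964), CCN1 at -0.59 ± 0.26 (adjusted p = 0.00323) and THBS1 at -0.51 ± 0.25 (adjusted p = 0.0058). CCN2 did not pass, at -0.20. The POSTN call was lost without either array of experiment 2 and that of ADAMTS6 without its treated array. Without experiment 2, 2 of the collagens and matrix genes, 3 of the proteases and inhibitors and 2 of the YAP and TAZ targets were called lower.

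Of 18 genes of hyaluronan and glycosaminoglycans, 5 fell (27.8%) and 1 rose (5.56%), against 7.58% and 4.94% of all genes. Hyaluronan synthase HAS2 fell, at -0.64 ± 0.43 (adjusted p = 0.0284). The 1 that rose was UGDH, which makes their UDP-glucuronate, at 0.31 ± 0.21 (adjusted p = 0.041). The call of HAS2 was lost without the resting array of experiment 1 or either array of experiment 3, and that of UGDH in 5 of the 6 fits without 1 array, all but the one without the treated array of experiment 3. In TGF-β and BMP signalling 4 of 19 genes fell (21.1%, against 7.58% of all genes) and 0 rose. GREM1, a BMP antagonist, gave -1.11 ± 0.25 (adjusted p = 0.000269), BMPER -0.50 ± 0.10 (adjusted p = 0.000117), ID1 -0.59 ± 0.30 (adjusted p = 0.0309) and TGFB2 -0.58 ± 0.27 (adjusted p = 0.0175). The calls of ID1 and TGFB2 were each lost in 4 of the 6 fits without 1 array, ID1 with each array of experiments 1 and 2 left out in turn and TGFB2 without either array of experiment 2, the resting array of experiment 1 or the treated array of experiment 3, and as few as 2 genes of the list were then lower. Of 26 cell cycle genes, 9 fell (34.6%, against 7.58% of all genes) and 0 rose. Among the 9 were MCM6 (-0.55 ± 0.10, adjusted p = 0.00141), MCM4 (-0.33 ± 0.01, adjusted p = 0.000866), RRM2 (-0.67 ± 0.27, adjusted p = 0.00426), CCNE2 (-0.35 ± 0.10, adjusted p = 0.0034) and TYMS (-0.30 ± 0.11, adjusted p = 0.00645). Mitotic genes such as PLK1, AURKA and CDK1 did not pass, at 0.14, -0.01 and -0.13, and without experiment 2 or experiment 3 the number of cell cycle genes called lower was 2. Of 14 p53 targets, 1 was higher and 1 lower (7.14% each, against 4.94% and 7.58% of all genes). The death receptor gene TNFRSF10B rose, at 0.56 ± 0.05 (adjusted p = 6.58e-05), and the cyclin-dependent kinase inhibitor CDKN1A fell, at -0.46 ± 0.07 (adjusted p = 0.00161).

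Calls in other lists are given beside the shares of all genes, 4.94% higher and 7.58% lower. Of 16 interferon-stimulated genes 3 rose (18.8%) and 0 fell. The 3 were IRF9 (0.53 ± 0.19, adjusted p = 0.000781), OAS3 (0.26) and OAS2 (0.20). The OAS3 and OAS2 calls were lost in 5 and 4 of the 6 fits without 1 array. Of 14 NRF2 targets 3 rose (21.4%) and 1 fell (7.14%). Those that rose were SLC7A11, NQO1 (0.54 ± 0.11, adjusted p = 0.00144) and GCLC (0.33 ± 0.14, adjusted p = 0.00698). HMOX1, heme oxygenase, fell at -0.49 ± 0.23 (adjusted p = 0.0178), a call lost without either array of experiment 2 or the treated array of experiment 1. Cholesterol and fatty acid synthesis had 6 of 19 genes lower (31.6%) and 1 higher (5.26%), and 1 was lower without experiment 1 or without experiment 2. FDPS gave -0.67 ± 0.38 (adjusted p = 0.0437) and the sterol sensor gene INSIG1 -0.57 ± 0.10 (adjusted p = 0.00257). The FDPS call was lost in 5 of the 6 fits without 1 array. Of 20 autophagy and lysosome genes, 3 rose (15%) and 0 fell, led by WIPI1 (1.13 ± 0.14, adjusted p = 6.61e-06), which is also in the ER list. The median log2 fold change of the 20 was 0.02, against 0.01 over all genes.

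Of the small nuclear and nucleolar RNAs, none was called higher. The U4 spliceosomal RNA gene RNU4-2 read 4.5, 4.90 and 4.34 with IL-1β and GlcN and 4.23, 5.84 and 4.47 with IL-1β alone, against 5.56, 6.12 and 6.16 in resting cells, with log2 fold changes of -1.36 ± 0.40 (adjusted p = 0.0145) with IL-1β and GlcN and -1.10 with IL-1β alone, so that it lay below resting cells in both conditions. It stood at percentile 17 with IL-1β and GlcN and 33.9 in resting cells, and its call was lost without the treated array of experiment 2 or 3 or the resting array of experiment 3. RNU2-1 gave -0.51 ± 0.14 (adjusted p = 0.00694), and 0 of 7 spliceosomal RNAs had a positive log2 fold change. Of 81 C/D box snoRNAs, the guides for methyl groups on ribosomal RNA, 10 were lower (12.3%, against 7.58% of all genes) and 0 higher. The median was -0.38 with IL-1β and GlcN and 0.14 with IL-1β alone. Of 57 H/ACA snoRNAs, which guide pseudouridylation, 2 were lower (3.51%, against 7.58% of all genes) and 0 higher, and the calls of these, SNORA74A and SNORA21, were lost in 6 and 5 of the 6 fits without 1 array. SNORA38B, which had been 1 of the 2 genes lower with IL-1β alone, gave -0.84 ± 0.31 (adjusted p = 0.132) and -0.99. SNORD50A and SNORD50B, which lie in 1 host gene, gave -0.63 ± 0.11 (adjusted p = 0.00911) and -0.75 ± 0.24 (adjusted p = 0.0041). The SNORD50A call was lost without the treated array of experiment 2. Without experiment 2, 1 C/D box snoRNA was called lower. The recovery of short RNAs in each extract was not measured on these arrays, and its part in these values was not tested.

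**Figure D4:**
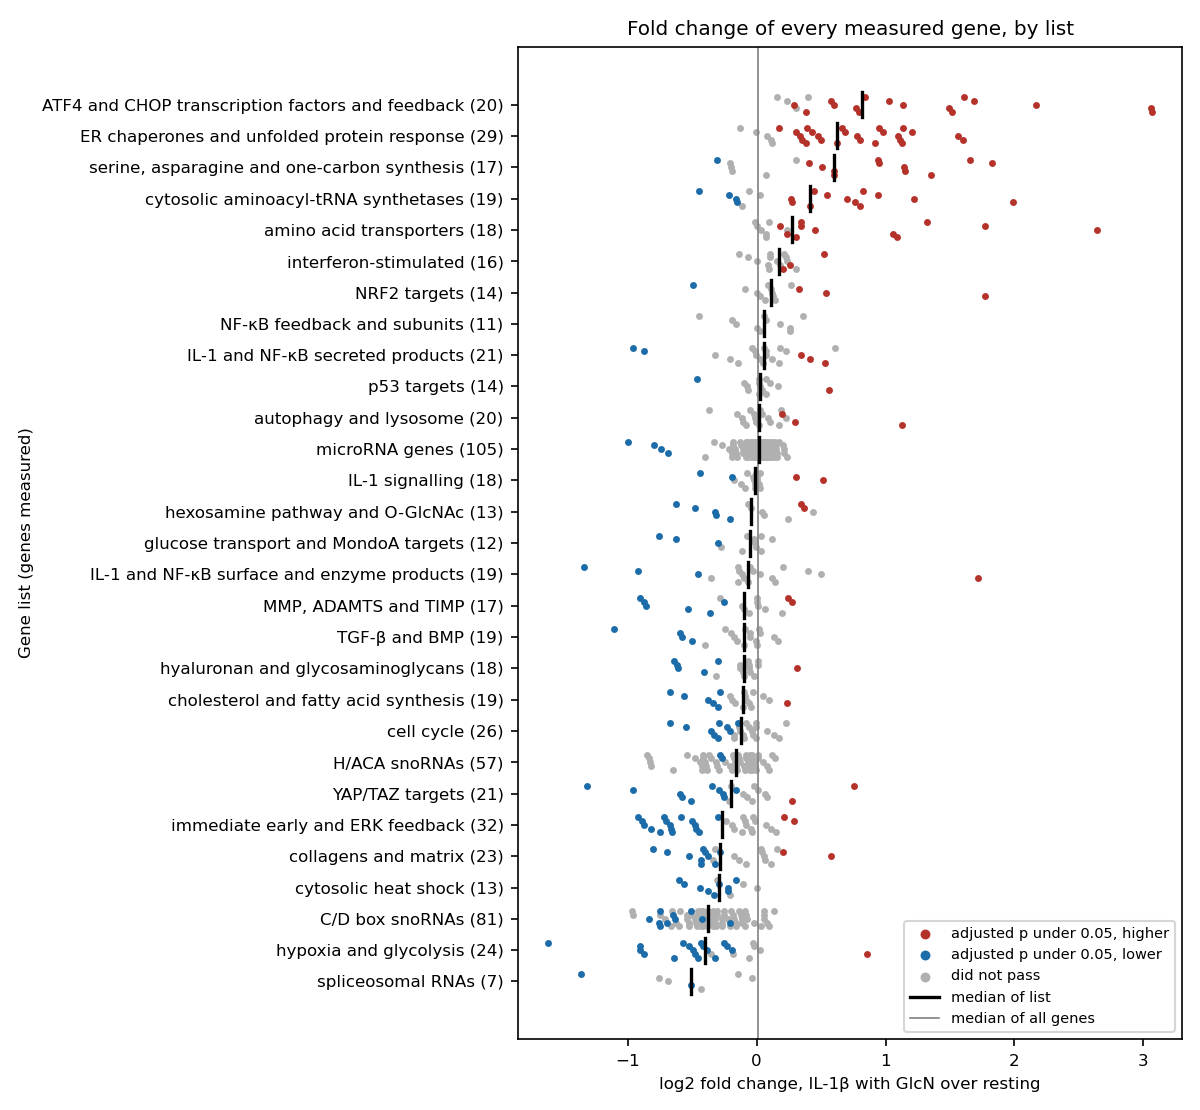
log2 fold change of each measured gene between cells with IL-1β and GlcN and resting cells (x axis) by gene list (y axis, with the number of genes measured). Red and blue points passed the test as higher and lower, grey points did not, and black bars are list medians beside a grey line at the median of all genes, 0.01. The 5 lists at the top have medians from 0.27 to 0.82, and the hypoxia and glycolysis list has a median of -0.40.

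The arrays with alloxan were on neither side of this comparison. Between them, IL-1β, GlcN and alloxan against IL-1β and alloxan gave log2 fold changes of the same genes from other arrays. The spread of each gene was fitted over all 15 arrays, these included, so that the calls in the 2 comparisons are not independent. Between the alloxan arrays, 314 of all genes were higher (1.86%) and 281 lower (1.67%) by the same test. Of the 834 genes higher than resting cells, 739 (88.6%) were positive there as well, where 41.5% of all genes were, and 205 (24.6%) passed. Of the 1279 lower genes, 1102 (86.2%) were negative there, where 57% of all genes were, and 210 (16.4%) passed. The median log2 fold changes were 0.35 and -0.33 against resting cells, and 0.17 and -0.13 between the alloxan arrays. The alloxan arrays hold IL-1β on both sides, so that any part of the difference from resting cells owed to IL-1β alone is not in them.

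The ER list had a median of 0.55 between the alloxan arrays, beside 0.62 against resting cells. HSPA5 gave 1.21 (adjusted p = 2.78e-05) there, HYOU1 0.99 (adjusted p = 1.67e-05) and ERO1B 1.10 (adjusted p = 0.000116), and ATF6 did not pass, at 0.21 (adjusted p = 0.336). The ATF4 and CHOP list had a median of 0.38 there, DDIT3 gave 1.28 (adjusted p = 0.000418) and INHBE 1.94 (adjusted p = 6.46e-05). The serine and one-carbon list had a median of 0.48 and ASNS gave 1.57 (adjusted p = 0.000213). Heat shock genes outside the ER had a median of -0.08 there (-0.30 against resting cells), C/D box snoRNAs -0.10 (-0.38) and cell cycle genes -0.01 (-0.12), where all genes had -0.01. Hypoxia and glycolysis genes had -0.21 and the immediate early list -0.39. Of the 13 genes that were higher with IL-1β alone, 12 were negative in this comparison, with a median of -0.41, and 4 passed as lower. These were MIR21 (-1.26, adjusted p = 0.000679), IL6 (-0.90, adjusted p = 0.0312), TNFAIP3 (-0.81, adjusted p = 0.0214) and CXCL8 (-0.96, adjusted p = 0.0355). TNFRSF9, which had stayed above resting cells, differed by -0.25 (adjusted p = 0.734).

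**Figure D5:**
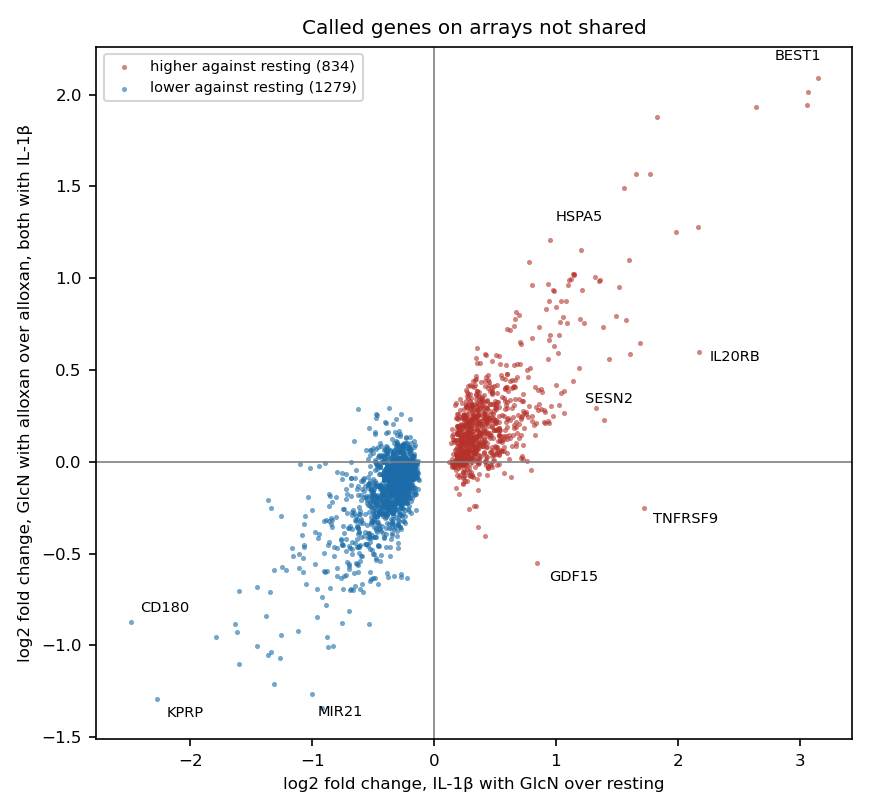
Each point is 1 of the 2113 genes that passed the test against resting cells, with its log2 fold change there (x axis) and its log2 fold change for GlcN with alloxan over alloxan, both with IL-1β (y axis), 2 comparisons with no array in common. Red genes were higher and blue genes lower than in resting cells; 739 of 834 and 1102 of 1279 have the same sign on both axes, and GDF15 and TNFRSF9 are labelled exceptions.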

How the data were processed

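RNA of MH7A cells was hybridised to Affymetrix Human Gene 1.0 ST arrays. The values are log2 signals that the authors made by RMA with the Expression Console program, and their background correction and normalization were kept. The program's version is not given in these sources. The number of arrays limits the precision.

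Arrays were grouped by the submitters' labels. Of 33297 clusters, 19460 had 1 gene symbol in the platform annotation, 19429 of them named through their RefSeq gene ID. The brightest cluster of each of 18417 symbols entered the test if it was at or above the 20th percentile on at least 3 of 15 arrays, leaving 16872 genes. Fits used limma 3.58.1 in R 4.3.3 on all 5 groups, with the experiment number as a block, two-sided p-values, Benjamini-Hochberg adjustment over all genes and a threshold of 0.05. The labels number the experiments, and the deviations of treated and resting arrays from their group means correlated within an experiment, at 0.74, 0.61 and 0.67. The study's methods state an unpaired t-test, which was an alternative. The fit had 8 residual degrees of freedom and was tested on simulated data. The replicates are 3 separate experiments on 1 cell line. Figures were drawn with matplotlib 3.10.9 in Python 3.11.15.

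Members, lists and the rule for naming genes were chosen with earlier results of these data known. Named were the 12 genes farthest from resting cells in each direction, with the same sign in 3 experiments, up to 5 genes of each list by p and members that complete a pathway, all 15 genes of the IL-1β response, a set of cytokine, NF-κB and O-GlcNAc genes, and up to 6 microRNA genes. Promoters and microRNAs came from RefSeq tables of GRCh38.p14, where 27305 promoters were searched. Alternatives were no block, only the 2 groups, an intensity trend with robust moderation, other filters, the mean over clusters, other scalings, the methods' t-test and leaving out each array or experiment. Genes of a list that were not tested are not counted. The further normalized values among the study's supplements were not used.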

Additional observations from a re-analysis of the deposited data

Results flagged for a closer look

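For 4 genes named above, the GlcN effect on IL-1β-stimulated cells differed between arrays without and with alloxan by limma's interaction term, where 10 genes had a positive and 2 a negative difference after adjustment over all 16872 genes. IL20RB had a GlcN effect of 2.24 ± 0.44 without alloxan and 0.60 ± 0.12 with it on the log2 scale (SD of 3 experiments), a difference of 1.64 (adjusted p = 0.0112). GDF15 had 0.96 ± 0.26 without alloxan and -0.55 ± 0.05 with it, a difference of 1.52 (adjusted p = 0.00515), and its decrease with alloxan passed the test in its own right (adjusted p = 0.0139). Its values were 9.87, 10.69 and 10.81 with IL-1β and GlcN and 9.76, 10.78 and 11.17 with alloxan added, 10.29, 11.38 and 11.69 with IL-1β and alloxan, 8.64, 9.98 and 9.86 with IL-1β alone and 8.74, 9.95 and 10.16 in resting cells. DDIT4 had 1.11 ± 0.12 without alloxan and -0.04 ± 0.13 with it, a difference of 1.15 (adjusted p = 0.0309). SESN2 had 1.33 ± 0.19 without alloxan and 0.44 ± 0.06 with it, a difference of 0.89 (adjusted p = 0.00515). SESN2 read 8.34, 9.41 and 9.84 with IL-1β and GlcN and 8.165, 9.34 and 9.81 with alloxan added. It read 6.81, 8.26 and 8.53 with IL-1β alone and 7.66, 8.96 and 9.37 with IL-1β and alloxan. IL20RB moved more with GlcN, from 8.23, 8.72 and 8.63 to 6.41, 7.21 and 7.66 with alloxan added. In every experiment, all 4 genes were higher with IL-1β and alloxan than with IL-1β alone. The cause was not tested. The GlcN effect without alloxan shares its IL-1β and GlcN arrays with the comparison against resting cells. With 3 arrays in each group, no test for a single outlying array was made.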

How the results depend on the processing

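The counts rest on the block and on the spread of all 15 arrays. With no replicate block, 4 genes were higher and 0 lower (30 and 24 at an unadjusted p under 0.05). With the replicate block over these 6 arrays alone, 1 was higher and 0 lower (1286 and 1681 unadjusted). The methods' t-test, unpaired, gave 0 and 0 after adjustment, and 18 higher and 20 lower at its own threshold of 1.5-fold with an unadjusted p under 0.05. Trend and robust moderation, the 2 other filters, the mean over clusters, quantile normalization and equal medians gave 674 to 914 higher and 1112 to 1430 lower genes, and moved the median of all genes by at most 0.02. Fits that left out 1 array or 1 experiment gave 264 to 1056 higher and 287 to 1663 lower. The counts moved by over 1.5 times without either array of experiment 2 (461 higher and 648 lower without the treated one, 449 and 608 without the resting one), without the treated array of experiment 3 (705 lower), without the resting array of experiment 3 (812 lower), and when a whole experiment was left out, except for the lower genes without experiment 1 (930). Of the 1279 lower genes, 274 kept their call without experiment 2, and of the 834 higher genes, 251.

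Of the 165 named genes that passed, 121 kept their call in every fit without 1 array and 71 in all 9 fits, among them DDIT3, ASNS, HSPA5, SLC6A9, STC1, DUSP6 and IL11. With the arrays left out, values crossed 0 for 5 named genes that had not passed. These were IL6 (from -0.0157 to 0.416), CXCL8 (from -0.0607 to 0.42), ICAM1 (from -0.253 to 0.0527), MIR29A (from -0.267 to 0.0154) and VMP1 (from -0.0611 to 0.0413), and the cause was not tested. IL32, IL1R2 and OAS2 lost their call under quantile normalization and under equal medians. The signal over background of single probes was not analysed here.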
